A study of Homo sapiens with 12 samples.

Results

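The 10 genes of blood vessel biology are described here: the ligands VEGFA, VEGFB, VEGFC and PGF, the receptor tyrosine kinases FLT1 and KDR, the co-receptors NRP1 and NRP2, and the vascular genes ESAM and RGS5. These 10 genes were picked by name out of the 60660 identifiers in the table, with their levels in these samples already known, so their values are given as a description and no p-value is attached to them. All 10 were among the 14858 genes abundant enough to be tested.

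RNA sequencing was done on dH1f cells, which are fibroblasts that were differentiated from the H1 line of human embryonic stem cells. NT cells, labelled Wildtype, carried a control guide RNA, and KO cells, labelled as MRG15 knockouts, carried a lentiCRISPRv2 vector with a guide against MRG15, a chromatin protein encoded by MORF4L1. Both kinds were collected on day 0, ahead of OSKM, and after 6 days of reprogramming with it. OSKM stands for the factors OCT4, SOX2, KLF4 and MYC. Each of the 4 groups held 3 libraries. The labels give the KO libraries a single guide code, so loss of MRG15 cannot be told apart from other traits of that guide or population. No culture kept for 6 days without OSKM is among the samples, so time in culture and OSKM cannot be told apart either. The labels do not say whether the 3 libraries of a group came from separate cultures, so the spread behind a p-value here may be technical.

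Libraries held an estimated 17.8 to 22.2 M reads, and mitochondrial transcripts took 4.18 to 5.53% of them. Levels below are normalised counts estimated from the deposited values, which are on the log2 scale of a variance-stabilising transformation (VST), and differences are differences of mean VST values with their standard error (SE). At low levels a VST difference is smaller than the log2 of the ratio of counts. Differences of low and of high genes therefore do not compare directly. A gene was called when its adjusted p was under 0.05. MORF4L1, the target of the guide, stood at 7773 ± 90.4 (SD, n = 3) in NT libraries and 1338 ± 71.9 in KO libraries on day 0, which is 5.81-fold lower, and at 6956 ± 217 and 1020 ± 52.2 on day 6, which is 6.82-fold lower. All 11 fibroblast markers were abundant enough to be tested, and collagen and fibronectin transcripts were among the highest of them. Markers of other cell types passed the same filter, so this does not check the fibroblast label. The summed level of the 11 was lower on day 6 and lowest in KO cells on day 6. There 10 of the 11 were called lower than in NT cells, beside 19.2% of all genes tested. From day 0 to day 6 in NT cells 9 were called lower and 2 higher, beside 33.1% and 33.6% of all genes. The 2 were S100A4 and, though not in every setting, DCN. In bulk RNA, fewer cells of a type and less RNA per cell cannot be told apart.

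VEGF ligands are secreted dimers that act mainly on endothelial cells, the lining of blood vessels. VEGFA binds both FLT1 and KDR, VEGFB and PGF bind FLT1, and VEGFC binds KDR and the lymphatic receptor FLT4. KDR carries most of the signal for growth and migration, whereas FLT1 binds VEGFA tightly with weak kinase activity, and a secreted form of FLT1 traps the ligand. Neuropilins have no kinase of their own and serve both VEGF ligands and class 3 semaphorins. Fibroblasts are a known source of VEGF ligands, while KDR, FLT1 and ESAM are best known from endothelium and RGS5 from pericytes, the contractile cells that wrap small vessels.

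Upstream sequences are shown for FLT1, which was low in all KO libraries, for KDR, which was high in all day 6 libraries, and for RGS5, whose KO difference changed sign between the days. Each window is the 250 bases before an annotated start in RefSeq (GRCh38.p14), written 5′ to 3′ on the strand of the gene. Capitals mark matches, on either strand, to the GC box (GGGCGG), the TATA box (TATAAA), the cyclic AMP response element (TGACGTCA) and the core of the hypoxia response element (ACGTG), and no matches of different motifs overlapped. RGS5 has 2 windows, at 2 distant annotated starts. Of its 12 transcripts in GENCODE, 3 begin close to the far start and 3 close to the near one. Windows were matched for 7 of the 10 genes, all but VEGFA, NRP1 and ESAM. Gene locations given below are on GRCh38.
FLT1, chr13:28495129-28495378, minus strand: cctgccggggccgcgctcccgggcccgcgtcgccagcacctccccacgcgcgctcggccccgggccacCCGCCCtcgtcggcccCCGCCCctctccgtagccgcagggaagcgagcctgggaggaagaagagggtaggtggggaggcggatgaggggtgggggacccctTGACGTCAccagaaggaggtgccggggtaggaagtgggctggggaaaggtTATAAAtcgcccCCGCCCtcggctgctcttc
KDR, chr4:55125596-55125845, minus strand: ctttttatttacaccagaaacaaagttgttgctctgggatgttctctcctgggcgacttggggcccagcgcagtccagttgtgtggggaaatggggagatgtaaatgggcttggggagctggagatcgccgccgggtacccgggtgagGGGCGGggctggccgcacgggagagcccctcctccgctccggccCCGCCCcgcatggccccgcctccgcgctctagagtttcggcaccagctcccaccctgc
RGS5 far start, chr1:163321736-163321985, minus strand: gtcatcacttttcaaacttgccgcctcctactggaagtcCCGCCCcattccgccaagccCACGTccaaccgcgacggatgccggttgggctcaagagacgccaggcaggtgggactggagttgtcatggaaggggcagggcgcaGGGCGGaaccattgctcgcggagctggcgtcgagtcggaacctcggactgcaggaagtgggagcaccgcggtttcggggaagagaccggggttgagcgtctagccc
RGS5 near start, chr1:163202917-163203166, minus strand: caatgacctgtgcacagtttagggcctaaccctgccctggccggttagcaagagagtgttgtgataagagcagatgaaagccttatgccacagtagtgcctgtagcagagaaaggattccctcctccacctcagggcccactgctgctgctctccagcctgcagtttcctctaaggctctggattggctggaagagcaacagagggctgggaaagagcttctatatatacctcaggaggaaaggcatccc
The FLT1 window held 3 GC boxes, 1 TATA box at positions -31 to -26 from the start and 1 cyclic AMP response element at -81 to -74. The KDR window held 2 GC boxes and neither a TATA box nor the hypoxia core. The far RGS5 window held 2 GC boxes and 1 hypoxia core at -191 to -187, and the near one held none of the 4 motifs. Among all 34943 windows, 42.5% held a GC box, 18.5% a hypoxia core, 10.8% a TATA box and 1.63% a cyclic AMP response element. G and C made up 73.2% of the FLT1 window, 65.2% of the KDR window, and 64.4% and 53.6% of the RGS5 windows. Values per gene cannot say which RGS5 start was used.

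Among the ligands, VEGFA (6:43770184-43786487, plus strand) was higher in KO than in NT cells on day 0 and lower on day 6. VEGFA counts were 6163, 6203 and 6319 in NT libraries and 8004, 7348 and 7813 in KO libraries on day 0. Day 6 gave 2213, 2118 and 2109 in NT and 1513, 1710 and 1516 in KO libraries. KO libraries were all above NT before OSKM and all below NT on day 6, with no overlap. The means were 1.24-fold higher on day 0 (difference 0.31, SE 0.05) and 1.36-fold lower on day 6 (difference -0.43, SE 0.05). From day 0 to day 6 the level was 2.90-fold lower in NT and 4.89-fold lower in KO cells.

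VEGFC (4:176683538-176792727, minus strand), the ligand of lymphatic vessel growth, had overlapping libraries before OSKM and separate ones on day 6. Its counts were 2451, 2297 and 2199 in NT libraries and 2045, 2176 and 2242 in KO libraries on day 0, where the groups overlapped. On day 6 they were 583.0, 590.1 and 607.8 in NT and 348.2, 358.9 and 340.3 in KO cells, a gap without overlap. The KO difference was -0.10 (SE 0.06) on day 0 and -0.68 (SE 0.06) on day 6, the latter a 1.70-fold lower mean. VEGFC was also the ligand with the deepest day difference in both kinds of cells, 3.90-fold lower in NT and 6.17-fold lower in KO cells.

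VEGFB (11:64234538-64238793, plus strand), a FLT1 ligand linked to lipid handling and tissue survival more than to vessel sprouting, had the same order of groups. Day 0 counts were 1496, 1341 and 1246 in NT and 1245, 1381 and 1306 in KO cells, and those groups overlapped. Day 6 counts were 422.9, 518.7 and 463.9 in NT and 310.3, 297.9 and 393.2 in KO cells, with every KO library below every NT library. That gap was 1.40-fold (difference -0.43, SE 0.10), and the third KO library lay closest to NT.

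PGF (14:74941834-74955784, minus strand), placental growth factor, was the one ligand not lower on day 6 in NT cells. Its counts were 92.4, 93.8 and 83.8 in NT libraries and 131.9, 128.3 and 140.4 in KO libraries on day 0. On day 6 they were 147.1, 153.0 and 134.4 in NT and 85.2, 83.7 and 93.4 in KO libraries. The groups exchanged places: KO on day 0 overlapped NT on day 6, and NT on day 0 overlapped KO on day 6. KO cells had a 1.48-fold higher mean before OSKM (difference 0.40, SE 0.09) and a 1.66-fold lower mean on day 6 (difference -0.51, SE 0.09). From day 0 to day 6 it was 1.61-fold higher in NT and 1.53-fold lower in KO cells.

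Levels can be set between genes only per length, and the order of the ligands depended on which length was used. Per kilobase of all annotated exons, NT cells on day 0 held 956.8 counts of VEGFC, 880.9 of VEGFB, 431.6 of VEGFA and 15.1 of PGF. Per kilobase of the longest coding transcript, the same cells held 1762 of VEGFA, 1122 of VEGFC, 986.2 of VEGFB and 46.7 of PGF. PGF was last on both scales. The exon-based ratio of VEGFA to PGF was 28.7 ± 2.14 in NT libraries and 23.9 ± 1.06 in KO libraries on day 0, and 6.14 ± 0.39 and 7.49 ± 0.87 on day 6. VEGFD, the remaining lymphatic ligand, was too low to be tested and had an estimated 0 reads in all day 0 libraries and means of 8.02 in NT libraries and 9.41 in KO libraries on day 6.

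**Figure D1:**
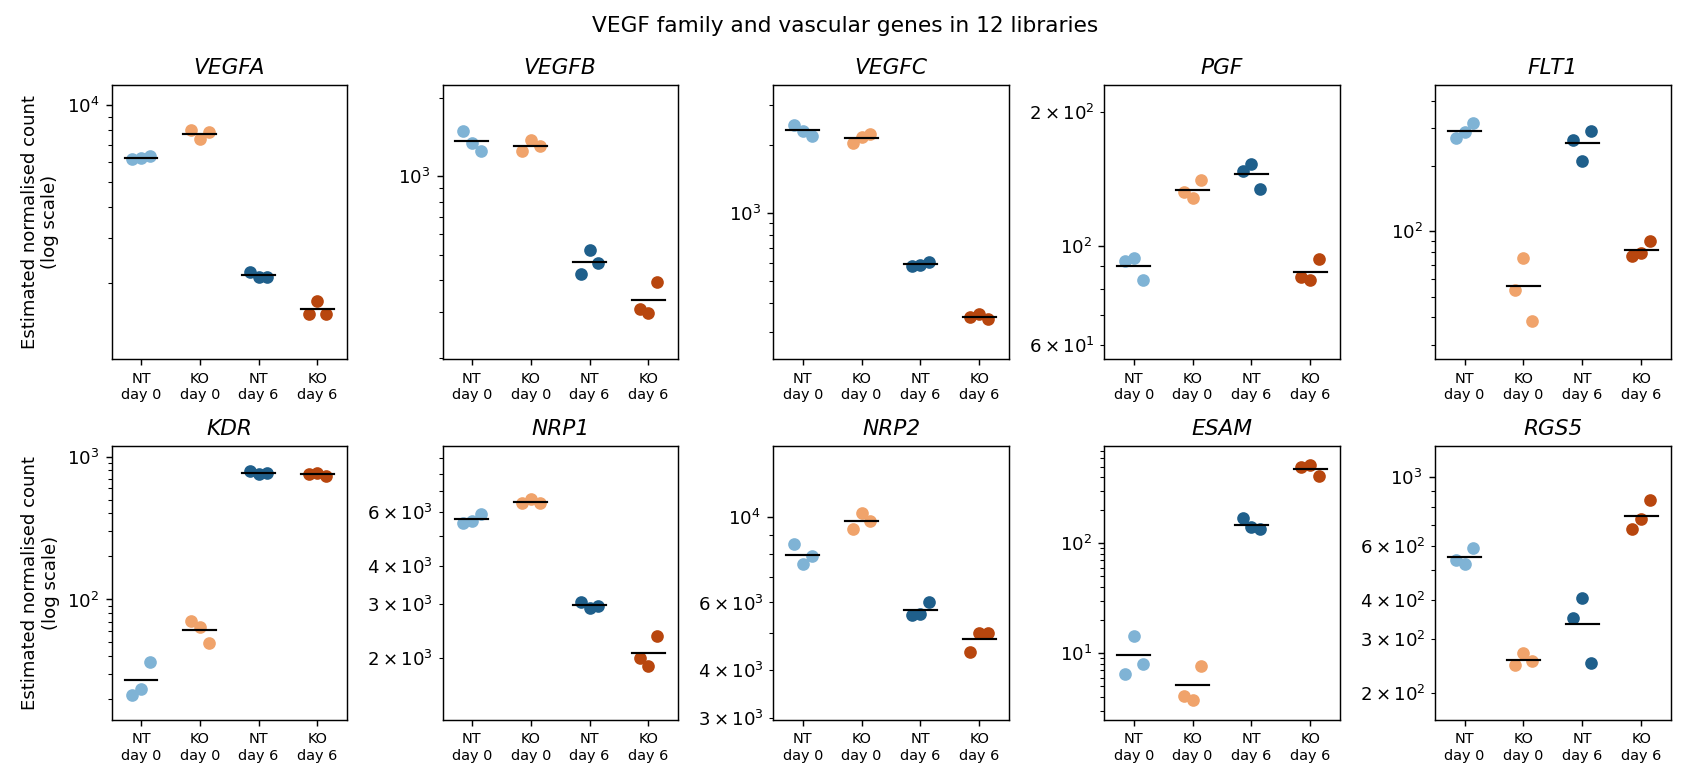
Estimated normalised counts (log axis, with its own range for each gene) of the 10 genes in the 12 libraries; points are libraries, black lines are group means, and colours mark NT (blue) and KO (orange) on day 0 (light) and day 6 (dark). KDR and ESAM are low in all day 0 libraries and high in all day 6 libraries, FLT1 is low in all KO libraries, and PGF and RGS5 have KO above NT on one day and below it on the other.

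FLT1 (13:28300344-28495145, minus strand), the high-affinity receptor and trap, was low in KO cells on both days. Its counts were 270.8, 287.4 and 316.6 in NT libraries and 53.8, 75.1 and 38.6 in KO libraries on day 0. The day 6 counts were 263.4, 210.4 and 291.7 in NT and 77.1, 79.4 and 90.0 in KO libraries. The highest KO library, at 90.0, lay far below the lowest NT library, at 210.4. The mean was 5.22-fold lower in KO cells before OSKM (difference -1.73, SE 0.13) and 3.11-fold lower on day 6 (difference -1.21, SE 0.13). This is the one member that was called lower in KO cells on both days.

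Between the days FLT1 moved little. NT libraries overlapped across the days, with means of 291.6 ± 23.2 and 255.2 ± 41.3 (difference -0.17, SE 0.13). KO libraries did not overlap, with 55.8 ± 18.4 on day 0 and 82.1 ± 6.92 on day 6 (difference 0.36, SE 0.13). That KO call was lost when the first or the third KO library of day 0, or the third of day 6, was left out, and the difference was then 0.35, 0.22 and 0.31. It was lost with quantile normalisation too, at 0.26. The values sum all FLT1 transcripts, of which the annotation lists 9, and cannot tell the secreted form from the membrane receptor.

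KDR (4:55078259-55125595, minus strand), the main signalling receptor, had the opposite shape, with low levels on day 0 and high levels on day 6 whatever the guide. Its counts were 21.6, 23.7 and 36.3 in NT libraries and 70.5, 63.9 and 49.3 in KO libraries on day 0. By day 6 they stood at 795.3, 749.8 and 762.5 in NT and 760.1, 773.9 and 734.3 in KO libraries. KO libraries were all above NT before OSKM, and the groups overlapped on day 6. The mean was 2.25-fold higher in KO cells on day 0 (difference 0.60, SE 0.10), while the day 6 difference was -0.02 (SE 0.10). Day 6 was 28.3-fold above day 0 in NT cells (difference 3.50, SE 0.10) and 12.4-fold above it in KO cells (difference 2.87, SE 0.10). The ratio was smaller in KO cells, whose day 0 level was higher. These ratios of the counts, and the 2.25-fold one, rest on low estimated counts on day 0.

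The balance of the 2 receptors changed in steps over the groups. Per kilobase of annotated exons, KDR stood at 0.18 ± 0.04 of FLT1 in NT libraries and 2.20 ± 0.49 in KO cells on day 0, and at 5.87 ± 0.91 in NT and 17.7 ± 1.83 in KO libraries on day 6. No library of one group reached into the next, the highest and lowest being 0.22 and 1.63, then 2.51 and 5.01, then 6.83 and 15.6. By this length FLT1 was the more abundant of the pair in NT cells on day 0, and KDR was in the other 3 groups. Per kilobase of the longest coding transcript the means kept that order, but they were close in KO cells on day 0. There they were 10.1 for KDR and 7.87 for FLT1, so the size of the gap in that group depends on the length used. FLT4, the lymphatic receptor, was too low to be tested, with 0.50 to 25.5 counts over the 12 libraries.

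NRP1 (10:33177492-33336262, minus strand), a co-receptor of VEGFA and of semaphorin 3A, was abundant and followed VEGFA in its group order. Counts were 5518, 5608 and 5897 in NT libraries and 6429, 6580 and 6407 in KO libraries on day 0. Their day 6 values were 3036, 2904 and 2956 in NT and 1995, 1877 and 2352 in KO libraries. KO was above NT on day 0 and below it on day 6, each time without overlap. The day 0 difference, 0.19 (SE 0.06), was not called, though it was with quantile normalisation (0.25), a shift to a common median, the stricter filter or only the groups compared in the fit, and without the second or the third KO library of day 6. The day 6 difference was -0.51 (SE 0.06), or 1.43-fold lower. Day 6 was 1.91-fold below day 0 in NT and 3.12-fold below it in KO cells.

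NRP2 (2:205681990-205798133, plus strand), the co-receptor used by VEGFC and semaphorin 3F, had the smallest day difference of the genes that were lower on day 6 in both kinds of cells. Counts were 8541, 7537 and 7906 in NT libraries and 9319, 10230 and 9757 in KO libraries on day 0. Day 6 gave 5576, 5612 and 6005 in NT and 4457, 4996 and 5011 in KO libraries. Here too KO lay above NT on day 0 (difference 0.29, SE 0.06) and below it on day 6 (difference -0.25, SE 0.06), with no overlap. Per kilobase of annotated exons NRP2 exceeded NRP1 in every group, by 1.17 ± 0.10 in NT libraries and 1.25 ± 0.04 in KO libraries on day 0. On day 6 the ratio was 1.60 ± 0.08 in NT and 1.94 ± 0.23 in KO cells, and all 6 day 6 libraries were above all 6 day 0 libraries.

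**Figure D2:**
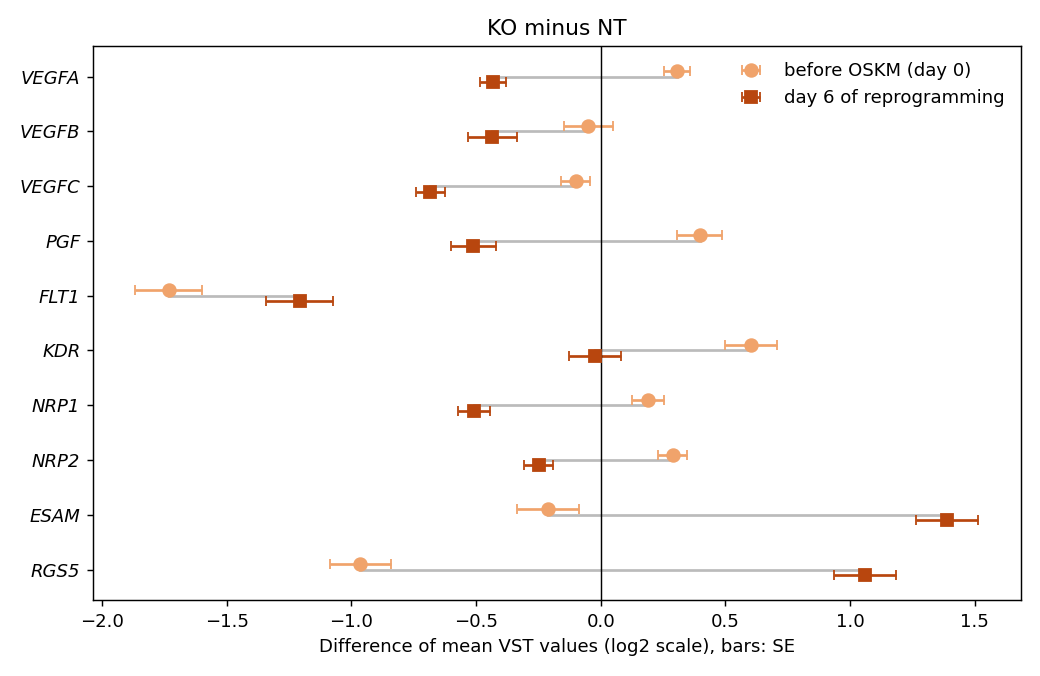
Difference of mean VST values (log2 scale) between KO and NT cells for each of the 10 genes, before OSKM (light circles) and on day 6 (dark squares), with bars for the SE. FLT1 lies left of 0 on both days, VEGFA, PGF, NRP1 and NRP2 pass from right to left, and RGS5 passes from left (-0.96) to right (1.06).

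ESAM (11:124752583-124762290, minus strand), an adhesion molecule of endothelial tight junctions and platelets, was close to absent before OSKM. Its counts were 6.42, 14.4 and 7.98 in NT libraries and 4.11, 3.72 and 7.70 in KO libraries on day 0. On day 6 they were 168.6, 141.8 and 134.0 in NT and 493.9, 516.9 and 409.2 in KO libraries. The day 0 groups overlapped at this low level, and on day 6 every KO library was above every NT library. On day 6 the KO mean was 3.20-fold higher (difference 1.39, SE 0.12). The differences between days were 1.99 (SE 0.12) in NT and 3.59 (SE 0.12) in KO cells, and ratios of the counts, 15.4-fold and 91.4-fold, rest on the few day 0 reads.

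RGS5 (1:163111121-163321791, minus strand), a regulator of G protein signalling, had the widest reversal. Counts were 538.9, 524.3 and 589.0 in NT libraries and 245.4, 269.5 and 253.4 in KO libraries on day 0. The day 6 counts were 348.9, 407.1 and 250.5 in NT and 676.7, 732.2 and 842.6 in KO libraries. KO was below NT on day 0 and above it on day 6, with no overlap on either day. The KO mean was 2.15-fold lower before OSKM (difference -0.96, SE 0.12) and 2.24-fold higher on day 6 (difference 1.06, SE 0.12). From day 0 to day 6 RGS5 was 1.64-fold lower in NT and 2.93-fold higher in KO cells, and the third NT library of day 6 reached down to the level of KO cells on day 0.

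NUF2, a kinetochore gene, lies on the opposite strand of RGS5 over 55216 bases without sharing exons, and had means of 211.6 in NT libraries and 309.9 in KO libraries on day 0 and 335.8 and 528.3 on day 6. Unlike RGS5, NUF2 had a higher KO mean on both days. A second annotated entry named RGS5 on the same strand shares 534 exonic bases with it and had group means of 18.1 to 20.3. The part of either in the RGS5 values was not tested. Library chemistry was stranded per the labels' protocols, and the setting used to count strands is not given in the sources used here.

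Counted over the 10 genes, KO cells had 4 called higher (VEGFA, PGF, KDR and NRP2) and 2 called lower (FLT1 and RGS5) on day 0, where 7.42% of all genes tested were called higher and 10.7% lower. The groups did not overlap for 7 of the 10, against 33.6% of all genes. On day 6, 2 were called higher (ESAM and RGS5) and 7 lower, with KDR in neither, beside 17.7% and 19.2% of all genes, and 9 did not overlap, beside 49.6%. The median difference over the 10 genes was 0.0694 on day 0 and -0.433 on day 6, beside -0.00432 and 0.00625 over all genes. Since these comparisons guided the choice of genes, nothing is read from the counts.

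Between day 6 and day 0, 3 of the 10 were called higher (KDR, ESAM and PGF) and 6 lower in NT cells, beside 33.6% and 33.1% of all genes. In KO cells 4 were called higher (KDR, ESAM, RGS5 and FLT1) and 6 lower, beside 37.6% and 36.2%. Groups without overlap numbered 9 in NT and 10 in KO cells, beside 69.6% and 76.4% of all genes, and the medians over the 10 genes were -0.565 and -0.718, beside -0.00225 and 0.011 over all genes. For the KO difference on day 6 minus that on day 0, 2 genes were called higher (ESAM and RGS5) and 6 lower, beside 9.07% and 11.2%. That quantity was 2.02 (SE 0.18) for RGS5, 1.60 (SE 0.18) for ESAM, -0.91 (SE 0.13) for PGF, -0.74 (SE 0.07) for VEGFA and -0.63 (SE 0.15) for KDR. FLT1, at 0.53 (SE 0.19), and VEGFB, at -0.38 (SE 0.14), were not called. FLT1 was called without the second KO library of day 0 (0.66), and VEGFB without the first NT library of either day or the third KO library of day 6.

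**Figure D3:**
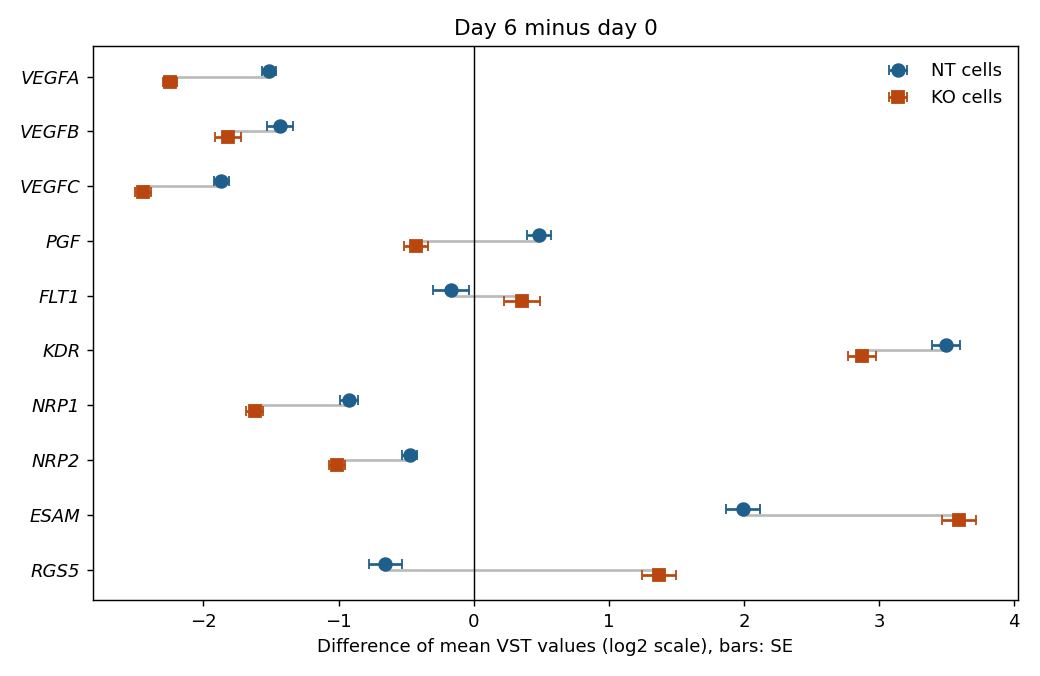
Difference of mean VST values (log2 scale) between day 6 and day 0 for the 10 genes in NT (blue circles) and KO cells (orange squares), with bars for the SE. VEGFA, VEGFB, VEGFC, NRP1 and NRP2 lie further left in KO than in NT cells, KDR lies far right in both, and PGF and RGS5 lie on opposite sides of 0 in the 2 kinds of cells.

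The semaphorins and plexins that work with neuropilins were mostly lower in KO cells on day 6. Of 13 such genes tested, 2 were called higher and 4 lower in KO cells on day 0, and 1 was called higher and 9 lower on day 6 (median difference -0.50). Counts for this list and those below stand beside the shares of all genes tested. In KO cells these were 7.42% higher and 10.7% lower on day 0, and 17.7% and 19.2% on day 6. From day 0 to day 6 in NT cells they were 33.6% and 33.1%. No list was tested as a set. PLXNA3, a plexin that pairs with neuropilins in semaphorin signalling, fell in KO cells on both days, from 2321 ± 116 to 1540 ± 124 on day 0 and from 1134 ± 266 to 600.6 ± 51.0 on day 6 (limma adjusted p = 0.00353 and 6.02e-05). SEMA3E, a ligand that binds PLXND1 directly, was higher in KO than in NT cells on both days. Its means were 97.7 ± 27.9 against 53.9 ± 6.02 on day 0 (limma adjusted p = 0.0087). That call was lost with only the groups compared in the fit (0.0548). Day 6 gave 1303 ± 45.5 against 835.0 ± 99.2 (limma adjusted p = 0.00112). Its receptor PLXND1 was lower in KO cells on both days. Means were 3913 ± 221 against 4901 ± 322 on day 0 (limma adjusted p = 0.0013). On day 6 they were 3774 ± 135 against 5932 ± 266 (limma adjusted p = 5.94e-07). In NT cells 6 of the 13 rose and 5 fell by day 6, among them SEMA3G, from 4.24 ± 1.78 to 384.5 ± 38.3, and PLXNA2, from 257.7 ± 31.6 to 1697 ± 101.

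Hypoxia-inducible factors are the best known activators of VEGFA. Of 11 genes of that machinery, none was called higher and 1 lower in KO cells on day 0, and 3 were called lower on day 6. The 1 gene of day 0 was EPAS1, which encodes HIF-2α (difference -0.18, limma adjusted p = 0.0385), and the call was lost without the filter on low values (adjusted p = 0.0936), with quantile normalisation (0.442) and without any one of the 6 day 0 libraries, among other settings. On day 6 EPAS1 fell in KO cells from 2704 ± 84.4 to 1048 ± 95.8 (difference -1.32, SE 0.06, limma adjusted p = 2.21e-10). HIF1A fell from 6526 ± 392 to 5293 ± 135 and CITED2, an inhibitor of HIF-1α, from 2264 ± 93.2 to 1670 ± 62.8. From day 0 to day 6 in NT cells 6 of the 11 fell and 2 rose, with a median difference of -0.63, and ARNT2 fell from 375.2 ± 81.6 to 35.7 ± 12.1.

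Genes that relay the signal inside the cell were spread in both directions. Of 20 genes tested out of 21, none was called higher and 4 lower in KO cells on day 0, 3 higher and 6 lower on day 6, and 5 higher and 13 lower from day 0 to day 6 in NT cells. HSPB1, a heat shock protein phosphorylated downstream of KDR, fell in KO cells on day 0 from 9670 ± 592 to 7203 ± 264 (limma adjusted p = 6.8e-05). On day 6 its difference was -0.06 (SE 0.05). SHB, an adaptor that binds KDR, rose in KO cells on day 6 from 638.5 ± 42.8 to 848.4 ± 31.6 (limma adjusted p = 0.00103). PRKCA, a protein kinase C, fell on day 6 from 791.7 ± 57.9 to 350.6 ± 41.1 (limma adjusted p = 5.89e-08). NOS3, endothelial nitric oxide synthase, rose by day 6 in NT cells from 62.7 ± 14.3 to 249.5 ± 63.5 (limma adjusted p = 4.74e-07).

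Other angiogenic factors and inhibitors were more often called lower than higher in KO cells, 7 against 3 of 25 tested on day 0 and 14 against 1 on day 6. The thrombospondins, which restrain vessel growth, had some of the deepest differences, -2.63 for THBS1 and -1.93 for THBS2 on day 6 (limma adjusted p = 8.36e-14 and 7.4e-13), and both were also called lower on day 0. JAG1, a Notch ligand, fell in KO cells on both days, from 1959 ± 117 to 875.0 ± 78.2 on day 0 and from 6386 ± 260 to 4920 ± 222 on day 6. ADM, the vasodilator adrenomedullin, rose in KO cells on day 0 from 2388 ± 182 to 3276 ± 126 (limma adjusted p = 0.000211). APLNR, the apelin receptor, was near 0 on day 0 and rose by day 6 in NT cells to 792.9 ± 26.9, with 990.7 ± 67.0 in KO cells.

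Relatives of ESAM, adhesion molecules of the same family, numbered 5 tested out of 9. Of these, CXADR and F11R, junction proteins of epithelia, rose by day 6 in NT cells, from 15.7 ± 12.7 to 453.6 ± 39.3 and from 23.8 ± 19.5 to 1167 ± 57.3. Both were higher still in KO cells on day 6, at 796.9 ± 77.9 and 1883 ± 225 (limma adjusted p = 0.00155 and 0.0142 for KO against NT). The call of F11R was lost with a pseudocount of 1 (adjusted p = 0.122) or 10 (0.0549) after removal of the floor, and without the third KO library of day 6 (0.0534). CLMP, another relative, took the other direction, with 3403 ± 164 in NT libraries and 4402 ± 148 in KO libraries on day 0 and 1197 ± 110 and 702.8 ± 8.64 on day 6. Of the R4 subfamily of RGS proteins, to which RGS5 belongs, 4 of 9 were tested. RGS2 rose in KO cells on day 6, from 561.1 ± 40.0 to 1011 ± 37.5 (limma adjusted p = 1.23e-06), while RGS3 fell from 539.4 ± 14.1 to 271.8 ± 31.6 (limma adjusted p = 1.38e-07). RGS4 fell in KO cells on day 0, from 8393 ± 484 to 4832 ± 191 (limma adjusted p = 1.62e-05).

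Markers of vessel cells were read beside these results. Of 25 endothelial markers 14 were abundant enough to be tested, and their summed level ran from 8906 to 10207 in NT libraries and from 8408 to 8759 in KO libraries on day 0, and from 9226 to 9381 and from 6977 to 7424 on day 6. CDH5 (group means 4.11 to 7.26), TAL1 (1.00 to 5.37) and PLVAP (1.66 to 2.59), all on that list, stayed near 0 in all groups. Other genes of the list did not, such as FLI1 and S1PR1, with means of 467.7 and 269.2 in NT cells on day 0. PECAM1 had means of 13.9 to 67.0, and CLDN5 of 2.17 to 15.5. Most of the sum was ENG and TEK, which other cells also express. From day 0 to day 6 in NT cells 8 endothelial markers rose and 5 fell: TEK, the angiopoietin receptor, rose from 930.9 ± 38.0 to 3878 ± 11.9, and SOX18, an endothelial transcription factor, from 1.29 ± 1.38 to 161.8 ± 7.38, while EGFL7 fell from 352.6 ± 41.3 to 84.4 ± 12.9. KDR and ESAM were higher on the same day, and the part of these markers in that result was not tested.

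In KO cells 2 endothelial markers were called higher and none lower on day 0, and 1 higher and 4 lower on day 6. The 2 of day 0 were TIE1, at 75.3 ± 17.8 against 26.5 ± 3.36 (limma adjusted p = 0.00588), and VWF, at 40.1 ± 26.0 against 14.0 ± 3.88 (limma adjusted p = 0.0435), whose call was lost without the filter (adjusted p = 0.0913), with quantile normalisation (0.0631), with only the groups compared in the fit (0.13) and on leaving out any one library other than the first KO library of day 0 and the second NT library of day 6. On day 6 MMRN2 rose from 86.1 ± 8.13 to 155.1 ± 2.19 (limma adjusted p = 0.00284), and ENG fell from 3809 ± 152 to 1908 ± 135 (limma adjusted p = 3.15e-08).

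Pericyte markers fell in KO cells, 7 of 12 tested on day 0 with 1 rising, and 10 of 12 on day 6 with none rising. Their summed level ran from 42952 to 44156 in NT libraries and from 25947 to 26742 in KO libraries on day 0, and from 19848 to 21242 and from 8530 to 9241 on day 6. The largest part of the day 0 sum was the contractile gene ACTA2, at 16560 ± 1108 in NT and 5619 ± 178 in KO libraries. On day 6 ACTA2 was at 6617 ± 221 in NT and 1270 ± 38.9 in KO libraries. In those KO libraries PDGFRB (1383 ± 83.6) and NOTCH3 had higher means, so the sums follow ACTA2 only in part. ABCC9 was the 1 marker called higher on day 0, at 49.1 ± 7.77 in KO against 19.9 ± 2.75 in NT libraries. COX4I2 and HIGD1B, which define pericytes in tissue, were at or near 0 in all groups, and KCNJ8 had means of 11.9 to 25.5. NOTCH3 fell from 3306 ± 251 to 1586 ± 105 on day 0 and from 3306 ± 125 to 1786 ± 254 on day 6 (limma adjusted p = 1.91e-06 and 2.12e-06), and CSPG4, the NG2 proteoglycan, fell from 2502 ± 180 to 1118 ± 63.7 on day 6. RGS5 was lower in KO cells on day 0, as were most of these markers, and higher on day 6, when 10 of them were lower. The 5 smooth muscle markers had 3 lower on day 0 and 5 lower on day 6. Of 8 blood cell markers 2 were tested, and PTPRC, the leukocyte antigen CD45, had means of 3.83 to 67.9. The part of these lists in the levels of the 10 genes was not tested.

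**Figure D4:**
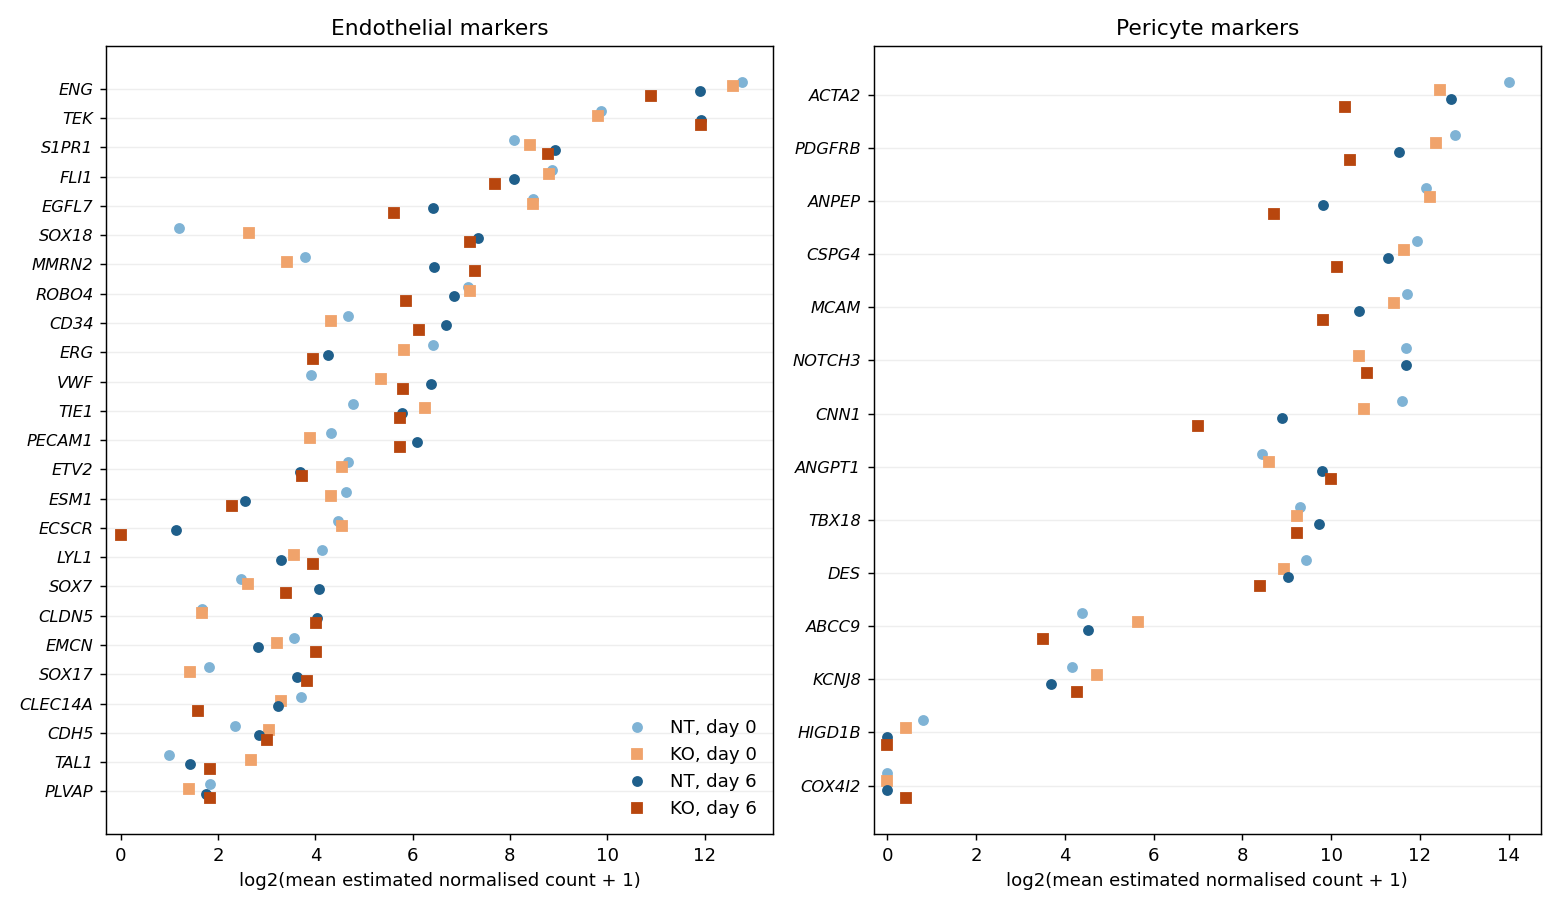
Levels of 25 endothelial and 14 pericyte markers in the 4 groups, as log2 of the mean estimated normalised count plus 1; circles are NT and squares KO, light for day 0 and dark for day 6. CDH5, TAL1 and PLVAP stay at the low end of the endothelial panel in every group, TEK and SOX18 are further right on day 6, and most abundant pericyte markers lie furthest left in KO cells on day 6.

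Each member was matched to the genes whose VST values, centred on their own means, lay closest over the 12 libraries by root mean square difference. FZD1 and TNFRSF1A were closest to NRP2, at 0.06 and 0.08. LAMP2 and MAML2 were closest to NRP1, at 0.08 for both, and CDC42EP3 and MOXD1 to VEGFC, at 0.08 and 0.09. MIR100HG and EVC followed for VEGFA, at 0.09 and 0.10. The distance was 0.11 for VEGFB with CPPED1, 0.12 for PGF with PIP5KL1, 0.19 for FLT1 with PLPPR4, 0.20 for KDR with KLK1, 0.19 and 0.22 for ESAM with LIM2 and LIN28A, and 0.26 for RGS5 with PCDH10. Each gene also varied about its own mean by a different amount, the root mean square being 0.23 for PGF, 0.40 for NRP2, 0.56 for RGS5, 0.76 for FLT1, 1.49 for ESAM and 1.61 for KDR. The distances are therefore not ranked between members.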

How the data were processed

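The deposited table holds log2-scale values that the authors made with the variance-stabilising transformation of DESeq2, and the submitters' processing notes also name STAR, Salmon and GRCh38. The sources used here do not give versions or the annotation release. All 12 value columns were matched to samples by name. Normalised counts were estimated by inverting the parametric form of the transformation, which was assumed. Scaled low values lay within 0.1 of whole numbers for only 64.1 to 70.4% of values per library, so no count model was fitted. Genes with a mean at least 1 above the floor of 4.85 (14.4 estimated counts) were tested by limma 3.58.1 (R 4.3.3) using the trend option, all 4 groups in 1 fit and Benjamini-Hochberg adjustment over all 14858 genes, two-sided. The unit of every test is the library, and the procedure was tested on simulated data.

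Members and gene lists were chosen with earlier results of these data known. Named list genes are those with the largest called differences in each list, up to 3 for each of the comparisons of KO with NT on day 0, KO with NT on day 6 and day 6 with day 0 in NT cells, and some are left out. CDH5, TAL1, PLVAP, PECAM1, CLDN5, COX4I2, HIGD1B and KCNJ8 are named outside this rule, as markers with low levels, and a few other list genes are named for contrast. Locations are from GENCODE release 29 and upstream sequences from RefSeq. Alternatives covered the filter, normalisation, pseudocount, groups in the fit, replicate number as a block and each library left out.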

Additional observations from a re-analysis of the deposited data

Results flagged for a closer look

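The KO difference took opposite directions on the 2 days, with the 3 libraries of each group apart on both days, for 5 of the 10 genes. The change between the days, day 6 minus day 0, was -0.738 for VEGFA, -0.908 for PGF, -0.698 for NRP1, -0.536 for NRP2 and 2.02 for RGS5, and it was called for all 5. These genes were chosen with their values known, so the calls are a description and no p-value is given. The share of all genes tested with such a reversal was not computed, so nothing is read from this count. Taken singly, KO and NT groups did not overlap for 33.6% of all genes tested on day 0 and 49.6% on day 6. The NRP1 difference on day 0 was not called.

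Among list genes that the naming rule took, 3 were picked because both KO differences were called, in opposite directions, and the change was called too. Their adjusted p-values were part of that choice and are no separate test. List genes outside that rule were left out, though some met the same conditions. Among them were SEMA3C (0.32 on day 0 and -0.55 on day 6) and the pericyte marker ABCC9 (0.60 and -0.36). The change was -0.619 for ADM (limma adjusted p = 0.000226), -1.09 for CLMP (adjusted p = 8.57e-07) and -1.16 for DCN, the matrix proteoglycan decorin (adjusted p = 1.79e-05). The day 6 side of the reversal for ADM (difference -0.17, limma adjusted p = 0.0492) was no longer called without the filter (adjusted p = 0.141), with quantile normalisation (0.0925), with a shift to a common median (0.0817), with only the groups compared in the fit (0.112), or on leaving out any one library other than the third NT library of day 0 and the first KO library of day 6. DCN had a day 0 level of 902.4 ± 139 in NT cells against 1497 ± 102 in KO cells, and a day 6 level of 1073 ± 41.3 against 767.3 ± 35.4.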

How the results depend on the processing

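Over all alternatives, 975 of 990 of the members' differences kept their side of the threshold, 11 became called and 4 lost their call. The 1 change of sign was VEGFB for KO on day 0, which was not called, from -0.05 to 0.02 without the first NT library of day 0. NRP1 on day 0 became called in some settings, and the lost calls were those of FLT1 between days in KO cells. Leaving out 1 library gave 6 to 7 members called on day 0 (6 with all libraries), 9 on day 6, 9 between days in NT, 9 to 10 in KO cells (10 with all) and 8 to 9 for the difference between the KO effects (8 with all). Genes called were 1925 to 2697 for KO on day 0 (2698 with all), 4517 to 5657 on day 6 (5487), 9316 to 9963 between days in NT (9923), 10436 to 11084 in KO cells (10969) and 2426 to 3052 for the difference (3017). Other settings gave 1976 to 2679, 4632 to 5812, 8529 to 10672, 9357 to 12165 and 2173 to 3209. Libraries with the same replicate number had residual correlations of -0.053 to 0.063. Such values cannot show whether these libraries share a culture or batch, and the labels name none. With the replicate block, genes called were 2633, 5470, 9945, 10991 and 2953, and members called 7, 9, 9, 10 and 8. Among results given above, the block made NRP1 on day 0 called (adjusted p = 0.0499) and ended the calls of EPAS1 on day 0 (0.0534) and ADM on day 6 (0.0554). Of 5519 values of named list genes, 5348 kept their side, 34 became called and 137 lost their call, and 59 of 1188 counts over lists moved by more than 1.5 times. The cause was not tested. ESAM on day 0, KDR in NT cells on day 0, FLT4 and VEGFD rest on few reads.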
